A study of Mus musculus with 12 samples.

Results

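Csf1r, Cd68, Adgre1, Lyz2, C1qb and Tyrobp are 6 genes in common use as markers of macrophages, and they were followed here through mouse male germ cells and their counterparts made in culture. They were chosen by symbol, as all probe sets annotated to 1 of these symbols alone, with their signals in these groups already known. The rule found 10 probe sets of the 34945 that carry a single symbol, 3 each for Csf1r and C1qb and 1 for each other gene, and all 6 genes were among the 14197 genes tested. Because the choice used the signals of all 4 groups, the values of the 6 genes are a description with no test. Tests are given for further macrophage genes.

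The series measured total RNA on 12 Affymetrix arrays of a single biotin label, in 4 groups of 3. Primordial germ cells (PGC) came from the genital ridge of BDF1 male fetuses at E12.5, and round spermatids (RS) from BDF1 male testis at 3 weeks. PGC-like cells (PGCLC) were taken at day 6 of differentiation in vitro, and spermatid-like cells (SLC) were also differentiated in vitro, at a time the labels do not give. The labels name no starting cell line, no transgene and no agent for either culture, and say that all cells were sorted by FACS without naming the gate. The titles call the arrays biological replicates and do not say whether a replicate is 1 animal, a pool or a culture. Array medians ran from 73.2 to 107 intensity units, and precision is limited by having 3 arrays a group. Of the PGCLC arrays replicate 2 stood apart from replicates 1 and 3 in many genes. In others replicate 1 was furthest from the rest, such as Tcf21 (29.0, 1007 and 519 units on replicates 1, 2 and 3). Some differences of the 6 genes and some counts of list genes that involve PGCLCs are also given without replicate 2.

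Macrophages grow and survive through CSF1R, a receptor tyrosine kinase of the cell surface that binds the cytokines CSF1 and IL34, and their identity depends on the transcription factor PU.1, the product of Spi1. They engulf dying cells and digest them in lysosomes, and they live in the fetal gonad and in the interstitium of the testis. The 6 proteins cover these roles. CSF1R is the growth factor receptor, Adgre1 encodes the adhesion receptor F4/80, and Tyrobp encodes the adaptor DAP12, which carries activating signals of receptors such as TREM2 through the kinase SYK. Cd68 encodes a glycoprotein of the lysosomal membrane, Lyz2 the secreted lysozyme of myeloid cells, and C1qb the B chain of C1q, the first component of the classical complement pathway.

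The sequences shown are the 250 bases before the start of the genes whose promoters the RefSeq table (GRCm38.p6) held, which were 3 of the 6. They are shown because these 3 genes were each highest in another group. Capitals mark GAGGAA, the purine-rich core that PU.1 binds, searched on both strands (as GAGGAA or TTCCTC). All 3 genes lie on the minus strand. Cd68 is at chr11:69666171-69666420, Lyz2 at chr10:117282273-117282522 and C1qb at chr4:136886201-136886450.
Cd68: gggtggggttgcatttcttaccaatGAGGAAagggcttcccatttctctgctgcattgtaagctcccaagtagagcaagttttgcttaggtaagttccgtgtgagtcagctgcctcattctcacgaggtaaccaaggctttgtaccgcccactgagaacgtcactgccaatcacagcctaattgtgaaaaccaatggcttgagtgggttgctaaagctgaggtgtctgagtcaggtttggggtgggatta
Lyz2: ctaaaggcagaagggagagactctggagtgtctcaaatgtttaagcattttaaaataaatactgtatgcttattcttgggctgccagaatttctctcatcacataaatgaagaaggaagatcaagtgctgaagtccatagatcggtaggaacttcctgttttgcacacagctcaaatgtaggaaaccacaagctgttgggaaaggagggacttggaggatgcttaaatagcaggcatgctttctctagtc
C1qb: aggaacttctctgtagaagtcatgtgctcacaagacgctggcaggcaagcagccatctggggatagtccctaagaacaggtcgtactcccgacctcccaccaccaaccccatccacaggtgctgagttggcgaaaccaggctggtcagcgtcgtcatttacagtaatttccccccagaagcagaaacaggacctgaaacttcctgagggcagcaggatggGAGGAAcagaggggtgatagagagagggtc
GAGGAA was found in the Cd68 window, starting at base -225, and in the C1qb window, starting at base -30, and these letters were not in the Lyz2 window on either strand. The same match occurred in 7639 of the 32851 promoter windows of this length, or 23.3%. CACGTG, the palindrome that lysosomal gene regulators of the TFEB family bind, was in none of the 3 windows and in 6.02% of all windows. A match in a window is a description of its letters and does not show binding.

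Signals are linear intensity units after the authors' scaling. Values under 30.7 units, the 25th percentile of the table, were set to that floor before log2 values were taken, and 92.0 units, the table's median, is called the filter level below. No detection calls were used, so signals under the filter level may hold little more than background. Levels of different genes are not compared, because probe sets differ in brightness. In these sorted bulk samples, fewer cells of a type and less RNA per cell cannot be told apart.

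Csf1r, the receptor gene, was highest in PGCLCs. Its brightest probe set read 90.7, 84.8 and 54.2 units on PGC replicates 1, 2 and 3, and 796, 279.7 and 601 on the PGCLC arrays. It read 246, 199.7 and 179.8 on the RS arrays and 200.4, 211 and 195 on the SLC arrays. All PGC arrays lay under the filter level and all other arrays above it, and PGCLC replicate 2 was the lowest of its group while still above every RS and SLC array. Group means were 559 ± 261 in PGCLCs (SD, n = 3), 209 ± 34.1 in RS, 202 ± 7.93 in SLCs and 76.6 ± 19.6 in PGCs. The PGCLC mean was 6.85-fold above the PGC mean as a difference of log2 means (log2 2.78), or 3.21 on the log2 scale without PGCLC replicate 2. RS and SLC arrays overlapped, with a log2 difference of -0.04, and RS lay 2.77-fold above PGCs without overlap. The SLC minus RS difference was -0.66 with arrays centred on their medians and -0.64 after quantile normalization.

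The other probe sets of Csf1r were dimmer, and the second is of an Affymetrix class that may bind several transcripts. On the second, PGCs were at 11.8, 8.13 and 35.3 units and PGCLCs at 254, 123 and 176, at least 5.47-fold higher. On the third, PGCs were at 120.3, 87.0 and 88.2 and PGCLCs at 222, 148 and 165, a 1.80-fold difference. All 3 probe sets thus placed every PGCLC array above every PGC array, and on each of them replicate 1 was the highest PGCLC array and replicate 2 the lowest. Averaged over the 3 probe sets, the PGCLC difference from PGCs was 2.03 on the log2 scale.

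The genes of the receptor's ligands were both measured. Csf1 was at 35.2, 40.8 and 10.04 units in PGCs and at 688, 78.2 and 463 in PGCLCs, and its PGCLC arrays stood in the same order as those of Csf1r. Csf1 rose at least 8.26-fold in PGCLCs over PGCs (log2 3.05, SE 0.61, limma adjusted p = 0.00594) and its 4 probe sets had the same sign. In SLCs it read 724, 678 and 671 units against 4.23, 14.5 and 49.1 in RS, at least 19.2-fold higher (limma adjusted p = 1e-04). With the deposited scaling, Csf1r therefore did not overlap between PGCLCs and PGCs, where Csf1 rose. On that scaling Csf1r overlapped between SLCs and RS, where Csf1 also rose. Il34, the other ligand gene, had a log2 difference of 0.86 in PGCLCs against PGCs (limma adjusted p = 0.0651) and of 0.05 in SLCs against RS, and neither was called. A gene is called here at a limma p, adjusted over all genes tested by Benjamini and Hochberg, under 0.05 with a difference of at least 2-fold.

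**Figure D1:**
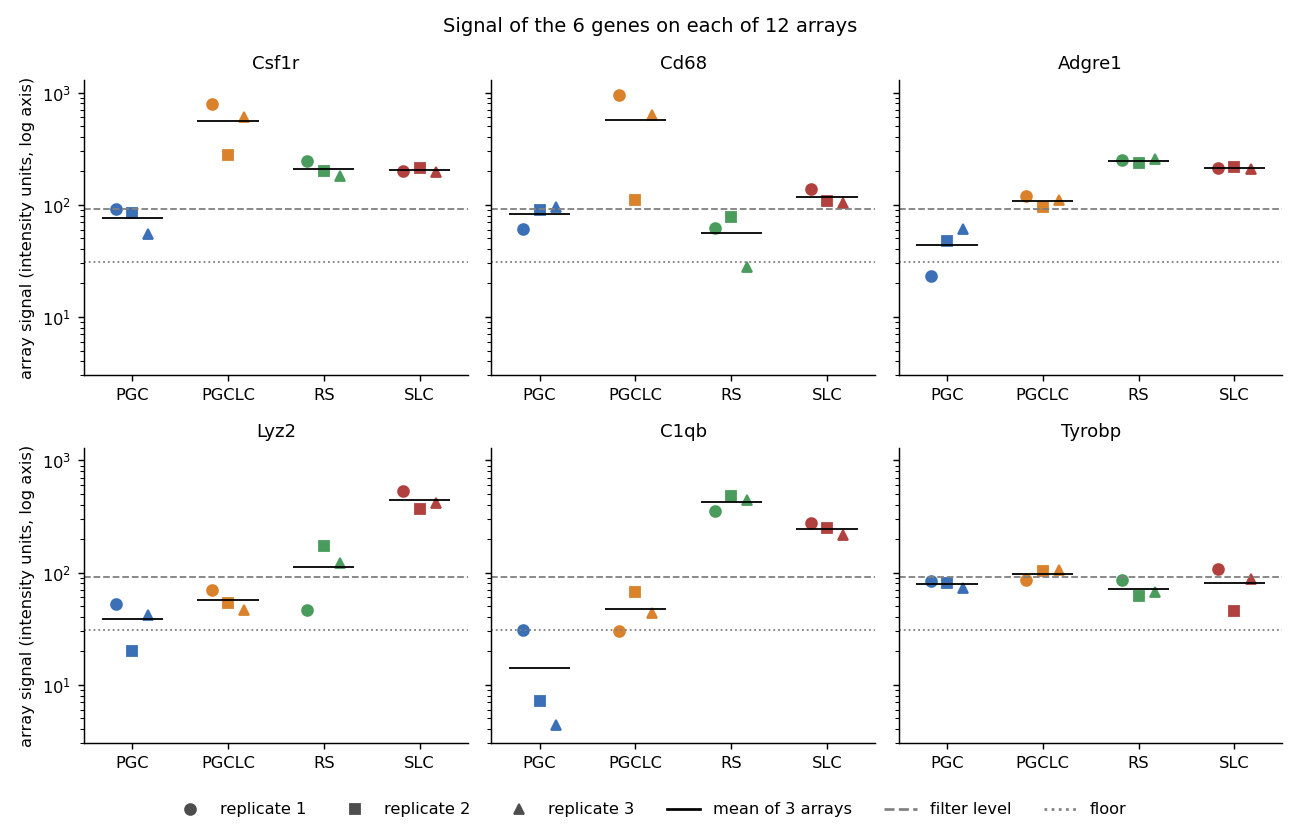
Signal of the brightest probe set of each of the 6 genes on every array, in intensity units on a log axis, with arrays marked by replicate, the mean of 3 arrays as a bar, and dashed and dotted lines at the filter level (92.0) and the floor (30.7). Csf1r and Cd68 are highest in PGCLCs, where replicate 2 is lowest, C1qb and Adgre1 in RS, Lyz2 in SLCs, and Tyrobp stays near the filter level throughout.

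Cd68, the lysosomal membrane glycoprotein gene, was also highest in PGCLCs but varied most among their arrays. It read 60.4, 88.7 and 96.2 units in PGCs and 944, 109.7 and 635 in PGCLCs. PGCLC replicate 2 was thus only just above the highest PGC array, and close to the SLC arrays at 139, 109 and 104. RS arrays were at 62.2, 78.3 and 27.9, and overlapped the PGC arrays. Means were 563 ± 422 in PGCLCs, 117 ± 19.1 in SLCs, 81.8 ± 18.9 in PGCs and 56.1 ± 25.8 in RS. The PGCLC difference from PGCs was 5.03-fold (log2 2.33) and 3.27 on the log2 scale without PGCLC replicate 2. SLCs exceeded RS by 2.19-fold without overlap, 2.09-fold as a ratio of means, and the log2 difference of 1.13 was 0.50 when each array was centred on its median.

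Genes of the lysosome that all cells use were read as a list beside Cd68. Of its 17 measured genes 7 rose in PGCLCs over PGCs and 0 fell (41.2%, against 10.4% of all genes called higher and 1.62% called lower), with a median log2 difference of 0.86 against 0.01 over all genes. The largest rises were those of the proteases Ctsl (4.12-fold) and Ctsb (3.54-fold), the sialidase Neu1 (3.71-fold) and the lysosomal regulator Tfeb (3.35-fold). Without PGCLC replicate 2, 10 of 17 rose and 0 fell (15.1% and 5.37% of all genes). Ctsb read 5882, 1642 and 4381 units on the PGCLC arrays, against 1081, 909 and 968 in PGCs. In SLCs 13 of 17 rose over RS and 0 fell (24.0% and 3.44% of all genes), led by Ctsz (51.2-fold), Ctsb (49.6-fold), Lamp2 (35.9-fold) and Ctsl (29.0-fold). In both comparisons Cd68 was thus higher in the group in which these genes of all cells rose, and the part of macrophages in its signal was not tested.

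Adgre1 and C1qb were highest in RS and next in SLCs. Adgre1, the F4/80 gene, read 249, 237 and 253 units in RS, 213, 218 and 206 in SLCs, 120.3, 95.9 and 109 in PGCLCs and 23.3, 47.5 and 60.8 in PGCs. No neighbouring groups in that order overlapped. Means were 246 ± 8.07, 212 ± 5.63, 108 ± 12.2 and 43.9 ± 19.0 in the same order. RS lay at least 5.52-fold above PGCs, and PGCLCs at least 2.42-fold above PGCs (log2 1.28, or 1.36 without PGCLC replicate 2). SLCs were 1.16-fold below RS, a log2 difference of -0.21 that was -0.84 with arrays centred on their medians and -0.81 after quantile normalization.

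C1qb, the complement gene, read 351, 481 and 446 units in RS and 274, 247 and 216 in SLCs. In PGCLCs it was at 30.02, 67.6 and 43.6, with replicate 2 the highest of its group, and in PGCs at 30.5, 7.13 and 4.34. All PGC arrays were at the floor and no PGCLC array reached the filter level, whereas every RS and SLC array was above it. RS, at 426 ± 66.9, was at least 13.7-fold above PGCs, and SLCs, at 246 ± 28.9, were 1.72-fold below RS without overlap. The SLC difference from PGCLCs was 5.45-fold, or 5.22-fold as a ratio of means, and 2.74 on the log2 scale without PGCLC replicate 2. The other C1qb probe sets, which belong to Affymetrix's class that may also bind related transcripts, gave the same order of group means. On the second, RS arrays read 198, 274 and 369.6 units, overlapping SLC arrays at 231, 213 and 213. On the third, RS was at 252, 230.1 and 225 and SLCs at 142, 195 and 169.6, without overlap.

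C1q is built of A, B and C chains, and the genes of its other chains gave little signal. C1qa was at the floor on all PGC, RS and SLC arrays, and its highest value was 66.5 units, on PGCLC replicate 2. C1qc was at the floor on all PGC arrays and read 2.25, 46.8 and 5.50 units in PGCLCs, 49.8, 72.6 and 23.1 in RS and 8.09, 54.8 and 2.92 in SLCs. Its means stood in the order of those of C1qb, but every array was under the filter level. Both genes were under the filter and were not tested.

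**Figure D2:**
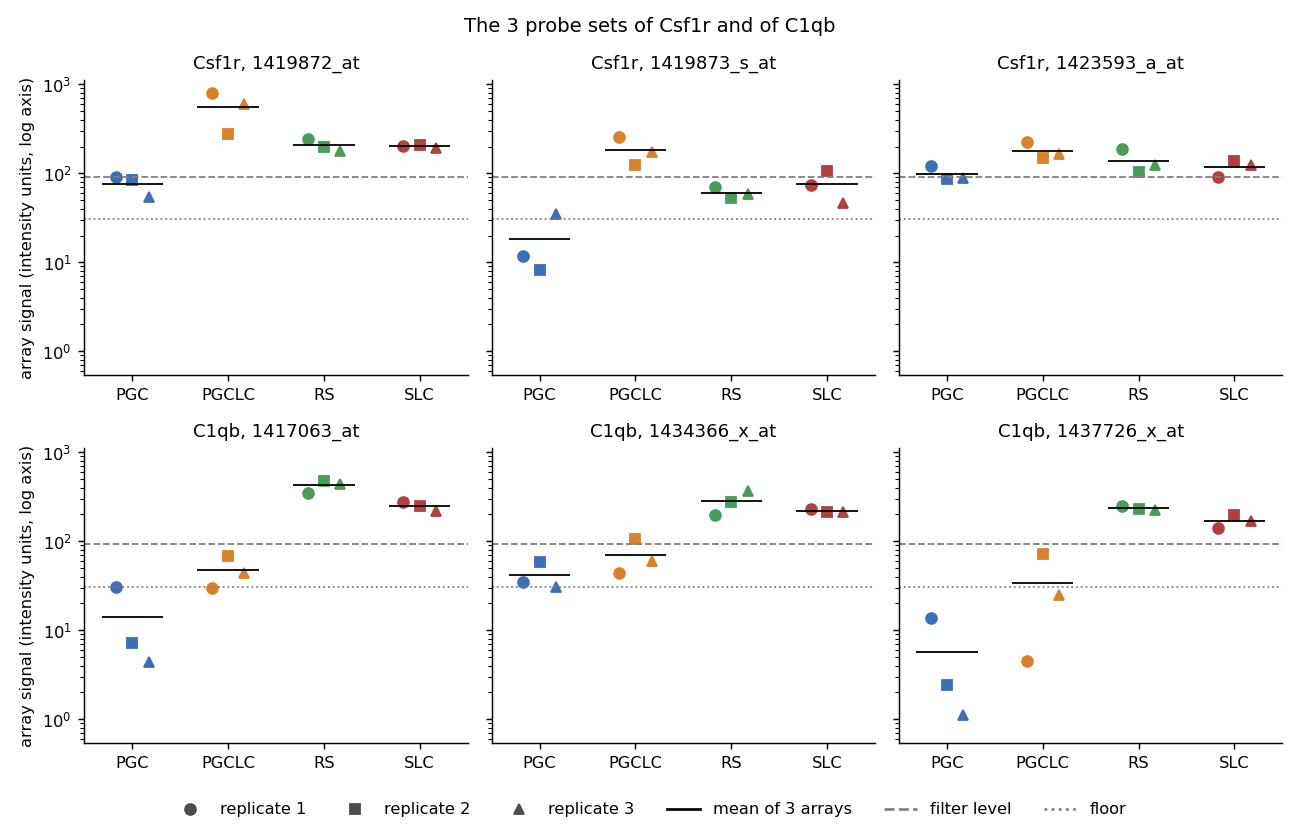
Signal of the 3 probe sets of Csf1r (upper row) and of C1qb (lower row) on each array, in intensity units on a log axis, with the same markers and lines as in the plot of the 6 genes. Each Csf1r probe set has all PGCLC arrays above all PGC arrays, and each C1qb probe set has the order RS, SLC, PGCLC, PGC of its means.

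Lyz2, the lysozyme gene, was highest in SLCs. It read 539, 366 and 414 units there, against 46.02, 171 and 121 in RS, 70.0, 53.7 and 46.7 in PGCLCs and 52.8, 20.2 and 41.8 in PGCs. Every SLC array was above every other array, and the other groups overlapped as neighbours in the order RS, PGCLC, PGC. Means were 440 ± 89.2 in SLCs, 113 ± 63.0 in RS, 56.8 ± 11.9 in PGCLCs and 38.2 ± 16.6 in PGCs. SLCs exceeded RS 4.41-fold (log2 2.14), 3.90-fold as a ratio of means, and exceeded PGCLCs 7.75-fold (log2 2.95, or 2.92 without PGCLC replicate 2). Lyz1, which encodes the lysozyme of intestinal Paneth cells, is a near-identical neighbour of Lyz2 and was read on a probe set of the class that may bind related transcripts, so the 2 signals may not be separate. It rose 7.03-fold in SLCs over RS, from 87.4 ± 26.9 to 615 ± 195 units (limma adjusted p = 7.43e-06), while another of its 3 probe sets had the opposite sign.

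Tyrobp, the adaptor gene, differed little between groups. It read 84.9, 81.0 and 73.3 units in PGCs, 85.0, 103 and 105 in PGCLCs, 86.2, 62.4 and 66.6 in RS and 107, 45.6 and 87.7 in SLCs. Only 3 of the 12 arrays were above the filter level, the fewest that the filter allows, and all neighbouring groups in order of mean overlapped. PGCLCs and PGCs did not overlap, by a margin of a fraction of a unit, and their log2 difference of 0.29 was 0.045 with arrays centred on their medians and -0.011 after quantile normalization. Its receptor and signalling partners were low or went another way. Trem2 and Fcer1g, an adaptor gene of the same kind, were under the filter, and Syk read 505, 494 and 468 units in PGCs and was at the floor on all SLC arrays.

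Across the 6 genes the group with the highest mean differed: PGCLCs for Csf1r, Cd68 and Tyrobp, RS for Adgre1 and C1qb, and SLCs for Lyz2. PGCLC arrays were all above PGC arrays for 4 of the 6, which was so for 20.2% of all genes tested. SLC arrays were all above RS arrays for Cd68 and Lyz2 and all below them for Adgre1 and C1qb, against 34.4% and 40.4% of all genes. RS arrays were all above PGC arrays for Csf1r, Adgre1 and C1qb (38.8% of all genes), and SLC arrays all above PGCLC arrays for Adgre1, Lyz2 and C1qb (38.1%) and all below for Csf1r (38.4%). These counts include what the choice of genes used, and nothing is read from them. Over the 12 arrays Pearson's r between floored log2 signals was 0.89 for Adgre1 with C1qb, 0.72 for Csf1r with Cd68, 0.67 for Lyz2 with C1qb and -0.48 for Cd68 with C1qb. The 12 arrays fall into 4 groups, so these values mix differences between groups with spread within them and carry no p.

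The PGCLC arrays ranked the 6 genes in unlike ways. Csf1r, Cd68 and Adgre1 were highest on replicate 1 and lowest on replicate 2, an order shown by 32.1% of all genes, and all 3 also had every PGCLC array above every PGC array, as 13.6% of all genes did in that order. C1qb was highest on replicate 2 and lowest on replicate 1, as were 30.1% of all genes. Relative to the PGC mean, the median of the 17 lysosome genes was 1.28, 0.18 and 0.99 on the log2 scale on replicates 1, 2 and 3, and 13 of the 17 stood in the order of Csf1r and Cd68. The 21 gonad and testis somatic genes had medians of -0.36, 1.34 and 0.30, and 15 of them stood in the order of C1qb. Germ cell genes, 11 in all, had medians of -0.57, -0.14 and -0.61.

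Summed signals of whole marker lists, in which bright probe sets weigh most, also differed between the PGCLC arrays. The 22 gonad and testis somatic genes with a probe set summed to 25491, 27994 and 32063 units on PGCLC replicates 1, 3 and 2. The sums were 18164 to 20407 in PGCs, 3482 to 4029 in RS and 79052 to 79561 in SLCs. Rhox5 was the brightest of these genes in PGCs, at 9758 to 10349 units, and weighed heavily in their sum. It read 7039, 7530 and 8817 on PGCLC replicates 1, 3 and 2, and 83.7 to 115 in SLCs. Erythroid genes (9) summed to 4021, 10267 and 16504 units on PGCLC replicates 1, 3 and 2, against 12547 to 13286 in PGCs and at most 565 in RS and 370 in SLCs. Most of that sum was 1 probe set, of the embryonic globin gene Hbb-y (1136, 7843 and 14997 in the same order), and Hbb-bh1, another embryonic globin gene, ran the other way (2008, 1476 and 353). Germ cell genes (11) summed to 26348, 45978 and 60288 units on PGCLC replicates 1, 3 and 2, against 66297 to 70428 in PGCs, so their sum was lowest on the array where Csf1r and Cd68 were highest. Lysosome genes (17) ran the other way, from 72822 on replicate 1 through 61160 on replicate 3 to 39956 on replicate 2. The part of these cell types in the signals of the 6 genes was not tested.

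**Figure D3:**
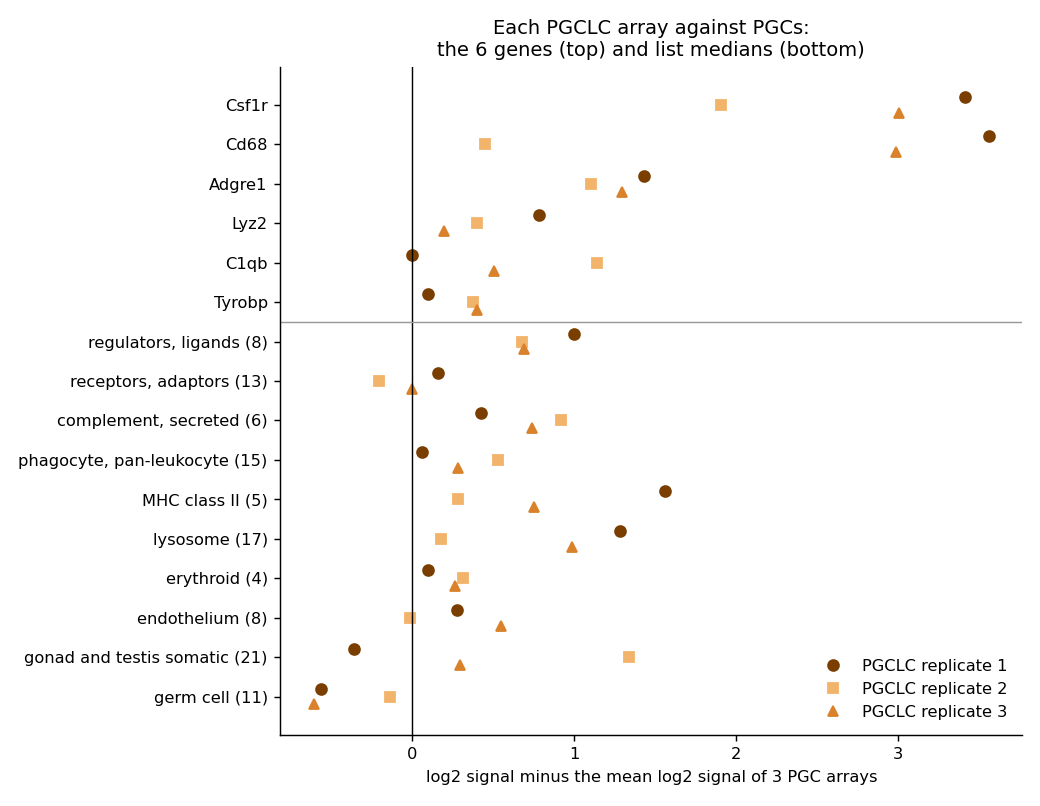
Log2 signal of each PGCLC array minus the mean log2 signal of the 3 PGC arrays, for the 6 genes (top) and as the median over the tested genes of each list (bottom, number in parentheses). Replicate 2 lies lowest of the 3 for Csf1r, Cd68 and Adgre1, and for the medians of regulators and ligands, receptors and adaptors, MHC class II, lysosome and endothelium. It lies highest for C1qb, and for the medians of complement and secreted, phagocyte and pan-leukocyte, erythroid, gonad and testis somatic, and germ cell genes.

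A wider list of 82 macrophage genes, without the 6, had 77 with a probe set, of which 47 passed the filter and 30 did not. Those 30 include the regulator Spi1, the pan-leukocyte gene Ptprc, the integrins Itgam and Itgb2, the receptors Mrc1 and Cd163, and the oxidase subunit gene Cybb, and these were picked from the 30 after their values were seen. The filter itself keeps such genes dim, so nothing is read from their number of low values. Spi1 read 163.6, 88.9 and 80.6 units in RS and had means of 62.3 ± 18.5 in PGCs, 52.8 ± 22.4 in PGCLCs and 83.6 ± 23.5 in SLCs. No gene of the wider list was at the floor on every array.

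Of the 47 wider-list genes tested, 12 rose and 1 fell in PGCLCs over PGCs (25.5% and 2.13%, against 10.4% and 1.62% of all genes), with a median log2 difference of 0.53. Of the regulators and ligands 3 of 8 rose: the ligand gene Csf1, and Cebpb (2.08-fold) and Maf (2.04-fold). Cebpb and Maf are transcription factor genes not limited to macrophages. Of the receptors 2 of 13 rose, the cytokine receptor chain gene Csf2rb (2.86-fold) and the lipopolysaccharide co-receptor gene Cd14 (at least 2.57-fold). Of the complement and secreted genes 1 of 6 rose, the lipid carrier gene Apoe, 18.0-fold from 179 ± 64.2 to 4487 ± 3492 units (log2 4.17, SE 0.67, limma adjusted p = 0.00234). Of the phagocyte and pan-leukocyte genes 4 of 15 rose, the oxidase subunit gene Cyba (10.4-fold), Laptm5 (3.29-fold), Gpnmb (2.28-fold) and Lcp1 (2.04-fold), and the metal transporter gene Slc11a1 fell 2.26-fold. Of the MHC class II genes 2 of 5 rose, H2-Eb1 (at least 5.76-fold) and H2-Ab1 (at least 2.25-fold, with overlapping arrays).

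The genes that rose most varied over the PGCLC arrays as Csf1r and Cd68 did. Apoe read 7649, 740 and 5074 units on PGCLC replicates 1, 2 and 3, Cyba 3215, 464 and 2199.9, and H2-Eb1 598, 83.5 and 333. In each of them replicate 2 was the lowest PGCLC array and still above all PGC arrays. Over the list, 13 of the 47 genes were highest on replicate 1 and lowest on replicate 2, and 12, among them Maf, stood in the reverse order (27.7% and 25.5%, against 32.1% and 30.1% of all genes). Relative to the PGC mean the list's median was highest on replicate 2, at 0.51 on the log2 scale against 0.23 on replicate 1 and 0.28 on replicate 3.

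The number of calls in PGCLCs depended on the arrays and on the scaling. Without PGCLC replicate 3 it was 6 of 47, all higher (Apoe, Cd14, Csf1, Cyba, Gpnmb and Maf), where 6.91% of all genes rose and 0.64% fell. Without PGCLC replicate 2 it was 12 higher and 1 lower (15.1% and 5.37% of all genes). Among these rises were 2 of 8 regulators and ligands and 3 of 5 MHC class II genes. Fitted on the 6 arrays compared alone, 1 gene was called, Cd14, where the same fit called 170 genes higher and 7 lower over the whole table. With arrays centred on their medians 7 rose and 2 fell (7.53% and 5.001% of all genes), and after quantile normalization 7 rose and 1 fell (7.51% and 2.66%). The median over all genes in this comparison was 0.01 as deposited and -0.24 after centring.

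In SLCs over RS 16 of the 47 rose and 0 fell (34.0%, against 24.0% of all genes called higher and 3.44% lower; at an unadjusted limma p under 0.05, 19 higher and 3 lower). The median log2 difference was 0.28 against -0.15 over all genes. Of the regulators and ligands 7 of 8 rose, led by Cebpb, 90.9-fold from 86.9 ± 13.8 to 7848 ± 605 units (limma adjusted p = 3.12e-10), Maf (at least 27.4-fold), Csf1 and Runx1 (at least 17.2-fold), a regulator of blood cell development. Of the receptors 4 of 13 rose, the scavenger receptor gene Marco (at least 7.43-fold), Tlr4 (at least 3.43-fold), the Fc receptor gene Fcgr2b (2.81-fold, 2.13-fold as a ratio of means, with overlapping arrays) and Cd14 (2.80-fold). Of the complement and secreted genes 1 of 6 rose, Lyz1. Of the phagocyte and pan-leukocyte genes 4 of 15 rose, Cyba (41.9-fold), the pore-forming protein gene Mpeg1, Gpnmb (at least 4.11-fold) and Cd53 (at least 2.51-fold).

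Mpeg1 was highest in SLCs, as Lyz2 was. It read 440.2, 476 and 400.5 units in SLCs, at least 12.3-fold above RS (limma adjusted p = 7.47e-08), and lay at the floor on all PGC and PGCLC arrays. Marco read 260.0, 263 and 174 units in SLCs and was at the floor on all RS arrays. For several of these genes other probe sets gave no such difference: of the 5 of Fcgr2b 1 had the sign reported, and of the 4 of Tlr4 2 did.

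None of the 5 tested MHC class II genes was called in SLCs against RS (at an unadjusted limma p under 0.05, 0 higher and 1 lower), with H2-Aa at -0.997 on the log2 scale (limma adjusted p = 0.00153), just under 2-fold. With arrays centred on their medians the wider list had 12 rises and 9 falls in this comparison (16.8% and 40.3% of all genes), and after quantile normalization 13 rises and 6 falls (19.7% and 15.8%), H2-Aa among the falls in both. All of those 12 and 13 rises were among the 16. Over all genes the median here was -0.15 as deposited, -0.77 after centring and -0.33 after quantile normalization. The 16 rises in SLCs and the 12 in PGCLCs shared 6 genes, Cd14, Cebpb, Csf1, Cyba, Gpnmb and Maf.

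**Figure D4:**
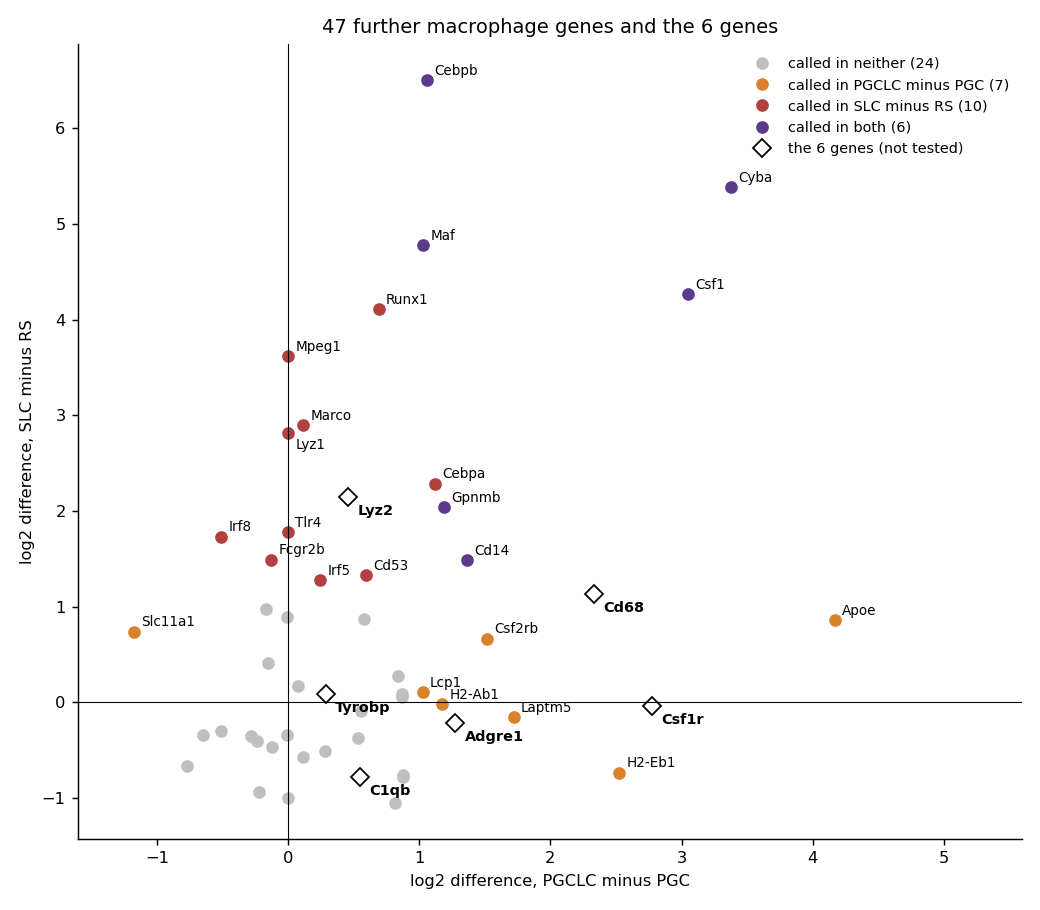
Log2 difference of PGCLC minus PGC (horizontal) against SLC minus RS (vertical) for the 47 tested genes of the wider macrophage list, coloured by the comparison in which each was called, with the 6 genes as open diamonds. Cebpb, Cyba and Csf1 lie above 0 on both axes, Apoe and H2-Eb1 at the right with Csf1r, and Mpeg1, Marco and Lyz1 at the top left with Lyz2.

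In RS against PGCs the wider list had 16 rises and 15 falls of 47 (34.0% and 31.9%, against 31.8% and 37.7% of all genes). With arrays centred on their medians there were 17 rises and 10 falls (33.9% and 35.0% of all genes), and after quantile normalization 18 and 13 (33.7% and 34.3%). All 5 tested MHC class II genes rose, and the regulators fell in 4 of 8 cases. The genes with the largest rises, chosen here after their values were seen, were Aif1 and Msr1. Aif1, which encodes an actin-binding protein of macrophages and microglia, was at 13606 ± 685 units in RS and 9158 ± 155 in SLCs. It was at 17.4 ± 24.4 in PGCs and 30.1 ± 25.6 in PGCLCs, at least 388-fold higher in RS than in PGCs (limma adjusted p = 8.71e-12). Its probe set is of an Affymetrix class that may bind several transcripts, and the part of macrophages in its signal was not tested. Msr1, a scavenger receptor gene, read 651 ± 85.5 units on average in RS, 338 ± 34.3 in SLCs and at or near the floor in PGCs and PGCLCs, at least 18.1-fold higher in RS than in PGCs (limma adjusted p = 2.68e-09). The order RS, SLC and then PGCs and PGCLCs was that of C1qb. In SLCs against PGCLCs 13 of 47 rose and 10 fell (27.7% and 21.3%, against 29.9% and 27.4% of all genes). Without PGCLC replicate 2, 17 rose and 9 fell (29.3% and 27.8% of all genes).

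Whether the differences of cells made in culture from cells of the animal changed between the 2 stages was tested as an interaction. This is the SLC minus PGCLC difference less the RS minus PGC difference. Cultured and animal cells may also differ in starting cells, age and sorting gate, so the part of culture itself cannot be told apart. The interaction was called positive for 9 of 47 genes and negative for 5 (19.1% and 10.6%, against 21.1% and 11.2% of all genes). With arrays centred on their medians the counts were 9 and 15 (15.9% and 24.5% of all genes), after quantile normalization 10 and 10 (17.1% and 13.8%), and with array weights 15 and 9 (23.4% and 14.5%). Without PGCLC replicate 2 they were 10 and 9 (22.8% and 14.4%). Cebpb (5.45), Mpeg1 (3.62) and Lyz1 (2.81 on the log2 scale) had a larger difference in SLCs over RS than in PGCLCs over PGCs. Slc11a1 was also positive (1.91), with a log2 difference of -1.18 in PGCLCs over PGCs that was called and a log2 difference of 0.74 in SLCs over RS that was not called. Apoe (-3.31), H2-Eb1 (-3.27) and Laptm5 (-1.88) had a larger difference in PGCLCs over PGCs than in SLCs over RS. For Csf1 the interaction was 1.22 and was not called (limma adjusted p = 0.265).

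Markers of other cells were read on the same arrays, and their counts stand beside 10.4% of all genes called higher and 1.62% lower in PGCLCs over PGCs, and 24.0% and 3.44% in SLCs over RS. Of the gonad and testis somatic genes 5 of 21 rose in PGCLCs over PGCs, led by Clu (5.24-fold), Dlk1 (3.81-fold), Vim (3.14-fold) and Col1a1 (2.91-fold), and 18 of 21 rose in SLCs over RS, led by the steroidogenic enzyme gene Cyp11a1 (at least 134-fold), Col1a1 (81.2-fold), Pdgfra (76.9-fold) and Col3a1 (69.7-fold). Lyz2 and Mpeg1 were thus highest in the group where somatic genes of the testis were highest. Csf1 also had its highest mean there, although PGCLC replicate 1 (688 units) read above SLC replicates 2 and 3 (678 and 671). The part of those cells in these results was not tested. Of 3 tested neutrophil genes Camp rose in SLCs, at least 16-fold to 496 ± 75.5 units, and in PGCLCs it had a log2 difference of -0.33 that was not called. All 9 lymphocyte genes with a probe set were under the filter, summing to 253 to 444 units over all arrays. Of 8 mast cell genes Hdc alone was tested and was called in neither comparison (log2 0.57 and -0.42), and Fcer1a was at the floor on every array.

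Of 4 erythroid genes Hbb-bh1 rose in PGCLCs (3.83-fold) and none was called in SLCs, where the largest difference was that of Hba-x (log2 -0.64). Of 8 endothelial genes Pecam1 fell in PGCLCs (2.11-fold), and in SLCs Cdh5 (3.11-fold) and Eng (2.56-fold) rose and Cldn5 fell (2.14-fold). Of 4 trophoblast genes Hand1 alone was called in PGCLCs, where it rose (2.003-fold). In SLCs Hand1 (2.28-fold) and Ascl2 (at least 2.01-fold) fell. Of 11 germ cell genes Nanog rose (2.16-fold, with overlapping arrays) and Dnd1 fell (2.92-fold) in PGCLCs, and Prdm1 rose (5.09-fold) and Pou5f1 fell (2.23-fold) in SLCs. Without PGCLC replicate 2, 5 of the 11 germ cell genes and 2 of the 21 somatic genes fell in PGCLCs, with 1 and 5 rising (15.1% of all genes rose and 5.37% fell). In the same fit 2 of 8 endothelial genes rose and 2 fell. Of 4 erythroid genes 1 rose and 1 fell, and 2 of 4 trophoblast genes rose with 0 falling.

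The genes most like each of the 6 over the 12 arrays, by Pearson's r of floored log2 signals among all genes tested, were for the most part not known as macrophage genes. Csf1r was closest to Mex3b (0.98), Rgp1 (0.96) and Dcbld1 (0.96), and Cd68 to the neuronal tubulin gene Tubb3 (0.97), Syngr1 (0.96) and Ndrg1 (0.96). Adgre1 was closest to Micall1 (0.99), Grk3 (0.99) and Mthfd2l (0.98), and C1qb to Grin2b (0.996), Henmt1 (0.995) and Cuzd1 (0.995), of which Henmt1 encodes the methyltransferase of piRNA ends in male germ cells. Lyz2 was closest to Itm2b (0.96), Cd59a (0.96) and the growth factor gene Tgfb3 (0.95). Tyrobp had no close match, the highest being C2cd4c (0.85), Slc2a4 (0.83) and Sirt6 (0.80). These values describe likeness over arrays that share groups and carry no p.

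The genes closest to C1qb and Lyz2 show what the likeness holds. Henmt1 was at 496 ± 65.8 units in RS, 250.5 ± 15.9 in SLCs, 46.4 ± 10.02 in PGCLCs and 26.5 ± 15.6 in PGCs, the group order of C1qb. Tgfb3 was at 850 ± 46.1 units in SLCs, 113 ± 35.2 in RS, 69.1 ± 22.04 in PGCLCs and 29.96 ± 8.41 in PGCs, the group order of Lyz2. Not every close gene had that order: Cd59a, second closest to Lyz2, averaged 560 units in PGCs and 547 in PGCLCs. Tubb3 was at 645 ± 414 units in PGCLCs, with an SD near that of Cd68, and at 152 ± 12.8 in SLCs, 113 ± 7.73 in PGCs and 70.2 ± 7.53 in RS.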

How the data were processed

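For each of 12 arrays the authors deposited 1 linear intensity value a probe set, and MAS5 is the only tool named, per the submitters' processing notes, with no version. On every array the mean after trimming 2% at each end was 500.0, so arrays had been scaled to a common level. That scaling was kept, values under 30.7 units were set to it, and log2 values were taken. Of 45101 probe sets, 64 controls, 932 with several symbols and 9160 with none were left out. Symbols came from the platform annotation, and 34741 were checked against RefSeq by Entrez identifier. Probe sets above 92.0 units on 3 or more arrays were kept, and the one with the highest mean stood for its gene, which left 14197 genes.

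One limma fit (limma 3.58.1, R 4.3.3; lmFit and eBayes with trend) with 4 group means used all 12 arrays, so the spread of the PGCLC arrays enters every p. Benjamini and Hochberg's adjustment was made over the whole table. Folds are differences of mean log2 values, written "at least" where the lower group had floored arrays and its ratio of means was not below the fold. Where sample sources are not stated to be separate, p measures only the spread between these samples. The fit was tested on simulated data with known changes.

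The members and lists were chosen with earlier results of these data known. Genes were named by a rule: the 6 genes, 8 partner genes, up to 4 called genes with the largest difference in each list and comparison (the largest difference where none was called), and the 3 genes most like each of the 6. Lists beyond the wider macrophage list covered lysosome, neutrophil, lymphocyte, mast cell, erythroid, endothelial, trophoblast, gonad and testis somatic, and germ cell genes. Replicate numbers were not used to pair arrays in the main fit. Deviations of same-numbered arrays correlated at -0.02 to 0.13, which does not exclude a shared origin. Promoters came from the RefSeq table. Alternatives changed the floor, filter, scaling, choice of probe set, arrays fitted, block and weights.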

Additional observations from a re-analysis of the deposited data

Results flagged for a closer look

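For 11 named genes of the wider list the interaction was called, so their differences of cultured from animal cells were unlike between the stages. The part of culture itself in these differences cannot be told apart. The interaction, the SLC minus PGCLC difference less the RS minus PGC difference on the log2 scale, was 5.45 for Cebpb, 3.75 for Maf, 3.41 for Runx1, 2.78 for Marco, 1.78 for Tlr4, 2.81 for Lyz1, 1.91 for Slc11a1 and 3.62 for Mpeg1. It was -3.31 for Apoe, -1.88 for Laptm5 and -3.27 for H2-Eb1. Over the wider list the interaction was called positive in 19.1% and negative in 10.6% of genes, against 21.1% and 11.2% of all genes tested, so the list's shares were near those of all genes. Adgre1 was higher on every PGCLC array than on every PGC array (log2 1.28) and lower on every SLC array than on every RS array (log2 -0.21), and this difference between the stages was not tested, since the gene was chosen with its signals known.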

How the results depend on the processing

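Of 288 alternatives for the log2 differences of the 6 genes, 264 moved the value by less than the spread between replicates, 23 by more, and 1 reversed a difference between groups that did not overlap. In 8 more the sign changed for groups that overlapped: 5 times for Tyrobp in SLC minus RS (down to -0.54), 2 times for Csf1r in SLC minus RS (up to 0.091) and 1 time for Tyrobp in RS minus PGC. The spread used was the root mean square of the SDs of the compared groups, and leaving out an array cannot move a difference that far. Dropping the filter left the values unchanged, as did averaging for genes with a single probe set. These settings are among the 264 and do not show that the values are stable. With each array centred on its median, SLC minus RS was -0.66 for Csf1r, 0.50 for Cd68, -0.84 for Adgre1, -1.41 for C1qb and -0.54 for Tyrobp, PGCLC minus PGC was 0.045 for Tyrobp, SLC minus PGCLC 0.76 for Adgre1, and RS minus PGC 3.95 for C1qb. After quantile normalization, SLC minus RS was -0.64 for Csf1r, -0.81 for Adgre1 and -1.32 for C1qb, RS minus PGC was 1.81 for Csf1r, 2.83 for Adgre1 and 4.11 for C1qb, and PGCLC minus PGC of Tyrobp was reversed at -0.011. With the floor at the 10th percentile C1qb was 1.82 (PGCLC minus PGC) and 5.07 (RS minus PGC), and with no floor and 16 added before log2 it was 1.13 and 3.97, while Lyz2 in SLC minus PGCLC was 2.64. With probe sets averaged, Csf1r was 2.03 (PGCLC minus PGC) and 0.94 (RS minus PGC), and C1qb -0.53 (SLC minus RS) and 3.16 (RS minus PGC). For the wider list 99 of 104 alternatives left the count within 1.5 times. That count adds rises and falls, so SLC minus RS lies within it at 12 rises and 9 falls with centring, against 16 and 0. Settings that left out an array of a group not compared are among the 104, and without the filter 77 genes were read rather than 47. The 99 therefore do not show that the calls are stable. The PGCLC minus PGC count of 13 was 8 after quantile normalization, 1 with only the arrays compared and 6 to 13 with an array left out, and the interaction count of 14 was 24 with centring and 24 with array weights. The causes of these changes were not tested, except that a fit of 6 arrays has fewer samples. With an array left out the counts were 15 to 18 in SLC minus RS, 21 to 26 in SLC minus PGCLC, 26 to 32 in RS minus PGC and 11 to 19 in the interaction. With the replicate block the count was 14 for PGCLC minus PGC, 17 for SLC minus RS, 23 for SLC minus PGCLC, 31 for RS minus PGC and 16 for the interaction, each within 1.5 times of the count without it. Same-numbered arrays correlated at -0.02 to 0.13 in their deviations, and in no comparison did every array correlate best with its own number. These correlations do not exclude that same-numbered arrays share an origin, which the labels do not give. With no detection calls, signals near the floor limit what can be said of Tyrobp and of the PGC and PGCLC signals of Lyz2 and C1qb.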
